A study of Homo sapiens with 6 samples.

Results

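The BMP ligand, receptor and antagonist genes examined here are 10 of the 62703 genes in the deposited table, picked by name: the ligands BMP2, BMP4 and BMP7, the type I receptors BMPR1A and ACVR1, the type II receptors BMPR2, ACVR2A and ACVR2B, the co-receptor RGMB and the secreted antagonist NOG. All 10 were found once in the table. Transcript levels had been measured by RNA sequencing of total RNA of H9, a widely used line of human embryonic stem cells. The siNPM1 group comprised 3 libraries of cells given a small interfering RNA against NPM1, whose treatment label names B23, another name of the nucleophosmin protein. The siControl group comprised 3 libraries of cells with a treatment labelled as control. Both groups are of the same line and carry no other label of a gene change, and the siRNA sequence, the dose and the time of harvest are not given in the sources used here. The series title names a link of NPM1 with BMP4 at the protein level and with TGF-β signalling. The values here are of transcripts, not of protein.

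Bone morphogenetic proteins (BMPs) are secreted dimers of the TGF-β superfamily that assemble type I and type II receptor kinases on the cell surface. The type II receptor phosphorylates the type I receptor, which phosphorylates SMAD1, SMAD5 and SMAD9, and these enter the nucleus with SMAD4 and induce genes such as the ID family. In human pluripotent cells BMP signalling drives exit from self-renewal towards extra-embryonic and mesodermal fates, whereas activin and nodal, which share the type II receptors ACVR2A and ACVR2B with BMPs, sustain pluripotency.

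The targeted transcript was reduced in each siNPM1 library. NPM1 stood at 173, 165 and 238 TPM (transcripts per 1000000, a level scaled to transcript length and to the library's total) in siNPM1 replicates 1, 2 and 3, against 3109, 2969 and 3132 TPM in the siControl replicates, which is -4.01 ± 0.157 (SE) as a log2 fold change (limma, adjusted p = 0.000852). The pluripotency markers POU5F1, NANOG, SOX2, LIN28A, DNMT3B, TDGF1, ZFP42, L1TD1 and SALL4 were all present, with summed levels of 3484 to 4091 TPM in siNPM1 and 4282 to 4320 TPM in siControl. At an unadjusted p under 0.05 in limma, 3 of these 9 were lower (POU5F1, NANOG and TDGF1) and 2 higher (DNMT3B and ZFP42). Of all tested genes 6.45% were lower and 13.2% higher at that p. The 3 lower markers did not overlap between the groups, the others did, and none of the 9 passed after adjustment. siControl replicate 2 stood apart from the other controls. Principal component 1 (54.4% of variance) placed the siNPM1 libraries at -32.2 to -30.4, this control at -28.1 and siControl replicates 1 and 3 at 59.9 and 61.7. Mitochondrially encoded transcripts made up 18.6% to 21.6% of the total in siNPM1 and 11.0%, 23.3% and 11.1% in siControl replicates 1, 2 and 3. On the second component, siNPM1 replicate 1 lay at 48.7 and the other libraries at -32.2 to 2.60. Summed amnion and trophoblast markers were at 23.4, 9.72 and 8.03 TPM in siNPM1 replicates 1, 2 and 3 and at 5.58 to 9.32 TPM in siControl, and neuroectoderm markers at 55.2, 6.43 and 7.21 TPM in siNPM1 and 3.53 to 4.81 TPM in siControl. In siNPM1 replicate 1 OTX2, at 45.2 TPM, made up most of the neuroectoderm sum, and KRT7 and TFAP2A, at 9.68 and 9.18 TPM, most of the amnion and trophoblast sum. GATA2, at 4.00 TPM in that library, lay within the siControl values of 4.58, 1.25 and 4.90 TPM. GATA3, at 0.25 TPM, was at its lowest there of the 6 libraries. At a mean of at least 1 TPM were 3 of 10 amnion and trophoblast markers (GATA2, TFAP2A and KRT7) and 2 of 7 neuroectoderm markers (PAX6 and OTX2). TFAP2A, with a mean of 0.0733 TPM in siControl, reached that level only through siNPM1, and CGA was listed at 0 in every library. Fibroblast markers (3 of 7 at that level) summed to 43.0 to 53.6 TPM in siNPM1 and 40.8 to 43.3 TPM in siControl, with LUM and DCN listed at 0 in every library, and mesendoderm markers (1 of 9 at that level) to 2.56 to 4.91 TPM in siNPM1 and 1.73 to 8.81 TPM in siControl. MIXL1, at 6.86 TPM, made up most of the mesendoderm sum in siControl replicate 2. EOMES (means of 1.33 TPM in siNPM1 and 0.287 in siControl) and TBXT (0.243 and 0.0633) were higher without overlap. The other mesendoderm markers overlapped. Of all genes above 0 in any library, 12% were higher without overlap. The part of such cells or states in the results below was not tested. A bulk library cannot tell fewer cells that express a gene from less RNA of it per cell.

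Promoter windows are shown for the type II receptor genes and for RGMB, because the levels given below set ACVR2B and RGMB apart from BMPR2 and ACVR2A. Each is a window of 300 bases, most of it upstream of a RefSeq transcript start (GRCh38.p14), written 5′ to 3′ on the gene's strand. Of the 10 genes, 7 matched the RefSeq promoter table, with 13 windows. Capitals mark every match to GGCGCC, which resembles GC-rich sites bound by SMAD1 and SMAD5, and to GTCT or its reverse complement AGAC, the core that SMAD3 and SMAD4 contact; GGCGCC is its own reverse complement and overlaps neither.
ACVR2B (chr3:38453640-38453939, plus strand): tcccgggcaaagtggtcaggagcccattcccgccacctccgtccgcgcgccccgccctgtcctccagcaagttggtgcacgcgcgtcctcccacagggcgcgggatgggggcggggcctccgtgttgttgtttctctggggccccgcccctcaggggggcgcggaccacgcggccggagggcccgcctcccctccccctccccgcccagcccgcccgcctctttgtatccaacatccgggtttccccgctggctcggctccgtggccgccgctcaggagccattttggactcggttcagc
RGMB (chr5:98773413-98773712, plus strand): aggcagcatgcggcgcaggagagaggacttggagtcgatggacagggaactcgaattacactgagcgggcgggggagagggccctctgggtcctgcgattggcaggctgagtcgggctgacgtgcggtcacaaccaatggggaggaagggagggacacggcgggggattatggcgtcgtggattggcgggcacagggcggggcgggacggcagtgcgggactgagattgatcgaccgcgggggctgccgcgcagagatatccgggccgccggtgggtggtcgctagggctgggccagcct
BMPR2 (chr2:202376077-202376376, plus strand): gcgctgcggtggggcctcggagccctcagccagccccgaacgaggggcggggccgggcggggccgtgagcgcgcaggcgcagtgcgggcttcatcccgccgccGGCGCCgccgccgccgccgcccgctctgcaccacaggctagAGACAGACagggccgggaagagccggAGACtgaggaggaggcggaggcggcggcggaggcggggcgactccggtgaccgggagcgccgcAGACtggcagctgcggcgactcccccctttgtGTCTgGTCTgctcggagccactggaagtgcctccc
ACVR2A (chr2:147844779-147845078, plus strand): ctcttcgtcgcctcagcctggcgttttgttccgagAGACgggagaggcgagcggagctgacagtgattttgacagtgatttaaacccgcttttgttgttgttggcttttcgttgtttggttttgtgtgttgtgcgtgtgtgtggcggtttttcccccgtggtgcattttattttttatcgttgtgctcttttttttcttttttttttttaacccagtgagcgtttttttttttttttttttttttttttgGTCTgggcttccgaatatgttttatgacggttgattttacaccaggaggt
The ACVR2B window and the RGMB window shown, 1 of 3 for that gene, held neither motif. The BMPR2 window held GGCGCC 1 time and GTCT or AGAC 6 times, and the ACVR2A window held GTCT or AGAC 2 times. The BMPR1A window, of a gene whose level was not lower, also held neither motif, and of 3 windows each the BMP4 ones held GTCT or AGAC 2 times each, with GGCGCC 2 times in 1 of them, and the ACVR1 ones held it 1, 2 and 3 times, with GGCGCC 1 time in 1 of them. Of 35116 promoter windows of the same length in the table, 19.2% held GGCGCC and 84% held GTCT or AGAC, with a median of 2 matches. Both other RGMB windows held 1 match to GTCT or AGAC each. The window of RGMB was the 1 of 3 that contains the annotated start of the antisense gene RGMB-AS1. This window lies inside the gene as placed by GENCODE release 29, which starts RGMB at 98768650. The ACVR2A window likewise lies inside its gene, which starts there at 147844517. G and C made up 73.0% of the ACVR2B window, 68.0% of the RGMB window, 76.7% of the BMPR2 window and 41.3% of the ACVR2A window, against a median of 58.7% over all windows. The matches are letters in a window and say nothing of whether a factor binds there.

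The levels of the 10 genes spanned a wide range, and the type I receptor BMPR1A was the most abundant in both groups. TPM is scaled to transcript length, so levels of different genes can be set side by side. In siNPM1 the order by mean level was BMPR1A (61.7 TPM), ACVR2B (16.9), BMP7 (12.5), ACVR1 (11.7), BMPR2 (9.13), BMP4 (8.03), RGMB (6.54), ACVR2A (6.07), BMP2 (1.42) and NOG (0.223 TPM). In siControl it was BMPR1A (52.7 TPM), ACVR2B (28.3), BMP7 (16.0), ACVR1 (11.96), RGMB (10.5), BMPR2 (7.41), ACVR2A (4.84), BMP4 (4.56), BMP2 (0.537) and NOG (0.1 TPM). Neighbours in this order overlapped across libraries in siNPM1 for ACVR2B with BMP7, BMP7 with ACVR1, BMPR2 with BMP4, BMP4 with RGMB and RGMB with ACVR2A, and in siControl for BMP7 with ACVR1, ACVR1 with RGMB and ACVR2A with BMP4. BMPR1A stood above 87.7% of the tested genes in siNPM1 and above 85.1% in siControl, whereas ACVR2A stood above 34.4% and 32.9%.

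0 of the 8 genes that reached a mean of 1 TPM passed the threshold between siNPM1 and siControl (limma, Benjamini-Hochberg adjusted p under 0.05), where 0.0254% of all 15768 tested genes passed. BMP2 and NOG were under this level. At an unadjusted p under 0.05, 2 of the 8 were lower, ACVR2B and RGMB, where 6.45% of all tested genes were lower at that p, and 0 were higher, where 13.2% were. In these fits the median log2 fold change of the 8 was 0.10, the same as that of all tested genes at this rounding; with 1 library left out it ran from 0.0075 without siNPM1 replicate 1 to 0.16 without siControl replicate 1. The groups did not overlap for 1 higher gene, BMPR2, and 2 lower genes, ACVR2B and RGMB, beside 16.2% and 8.55% of all tested genes. Fold changes here are differences of mean log2(TPM + 1), siNPM1 minus siControl; at low TPM the added 1 makes them smaller than the change in TPM. With 3 libraries a group, the smallest p of the two-sided exact permutation test is 0.1.

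**Figure D1:**
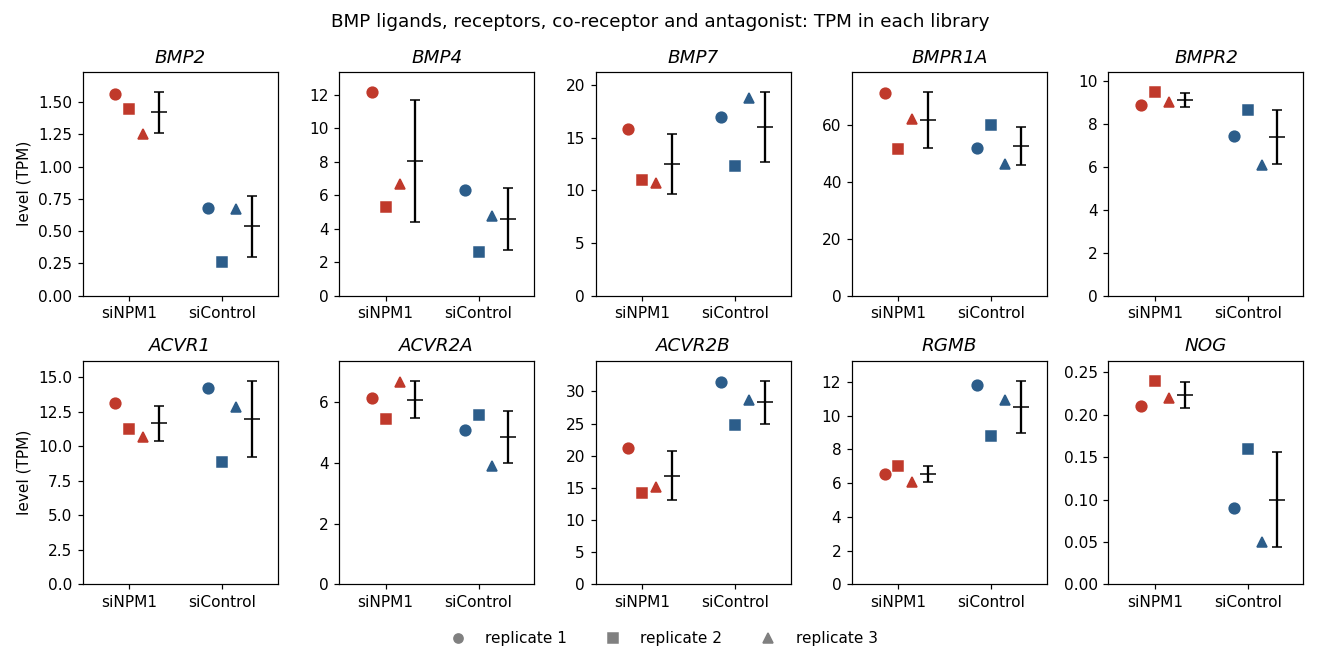
Level in TPM (linear axes from 0) of each of the 10 genes in the 3 siNPM1 (red) and 3 siControl (blue) libraries, with replicates marked by shape and the mean and SD at the right of each group. ACVR2B and RGMB lie lower, and BMP2, BMPR2 and NOG higher, in every siNPM1 library than in every siControl library, and the other genes overlap.

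Among the ligands, BMP4 and BMP2 had higher mean levels in siNPM1 and BMP7 a lower one, and none of these differences passed. BMP4 (chromosome 14, 53949736 to 53958761, minus strand, GRCh38), the ligand named in the series title, was at 12.1, 5.31 and 6.65 TPM in siNPM1 replicates 1, 2 and 3 and at 6.29, 2.61 and 4.77 TPM in siControl. The groups overlapped, since siNPM1 replicate 2 lay below siControl replicate 1. Its log2 fold change was 0.69 with a 95% interval of -0.18 to 1.56 (limma, adjusted p = 0.318; exact permutation p = 0.2). It was 0.38 without siNPM1 replicate 1, the highest library, and 0.41 without siControl replicate 2, the lowest (limma, adjusted p = 0.551 and 0.383). BMP7 (chromosome 20, 57168748 to 57266629), a ligand that can bind ACVR1, was at 15.8, 11.0 and 10.7 TPM in siNPM1 and 16.9, 12.3 and 18.7 TPM in siControl. siControl replicate 2 lay within the range of the siNPM1 libraries. The log2 fold change of BMP7 was -0.33 with an interval of -0.86 to 0.19 (limma, adjusted p = 0.404). It was -0.50 without siControl replicate 2 and -0.21 without siControl replicate 3 (limma, adjusted p = 0.0913 and 0.75), and -0.50 without siNPM1 replicate 1. Against siControl replicate 2 alone BMP7 was at 0.0049 (limma, adjusted p = 0.999). BMP2 (chromosome 20, 6767664 to 6780280), the close relative of BMP4, was at 1.56, 1.45 and 1.25 TPM in siNPM1 and at 0.68, 0.26 and 0.67 TPM in siControl. Every siNPM1 library lay above every siControl library, and the mean level in siNPM1 was 2.65 times that in siControl. In a fit with no filter on low values, over 33001 genes, BMP2 had a log2 fold change of 0.67 with an interval of 0.17 to 1.16 and did not pass (limma, adjusted p = 0.341; exact permutation p = 0.1); 12% of the genes in that fit were higher in siNPM1 without overlap, and 0.00303% passed in either direction.

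Summed over the 3 ligands the level overlapped between the groups, and the shares of the ligands in it did not. The sum was 29.5, 17.8 and 18.6 TPM in siNPM1 and 23.9, 15.2 and 24.2 TPM in siControl. BMP7 made up 53.5%, 62.0% and 57.6% of it in siNPM1 and 70.8%, 81.1% and 77.5% in siControl. BMP4 made up 41.2%, 29.9% and 35.7% in siNPM1 and 26.3%, 17.2% and 19.7% in siControl, and neither share overlapped between the groups. BMP2 made up 5.29%, 8.16% and 6.71% in siNPM1 and 2.85%, 1.72% and 2.77% in siControl. The ratio of BMP7 to BMP4 was 1.3, 2.07 and 1.62 in siNPM1 and 2.69, 4.70 and 3.93 in siControl (exact permutation p = 0.1). Of all pairs of tested genes listed above 0 in all libraries, 24.8% likewise had ratios without overlap, in either direction. A ratio within a library does not depend on how that library was scaled, but it shows unequal change and not which of its genes moved. Shares and ratios were chosen for description after the genes' values were known from earlier work on these data.

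**Figure D2:**
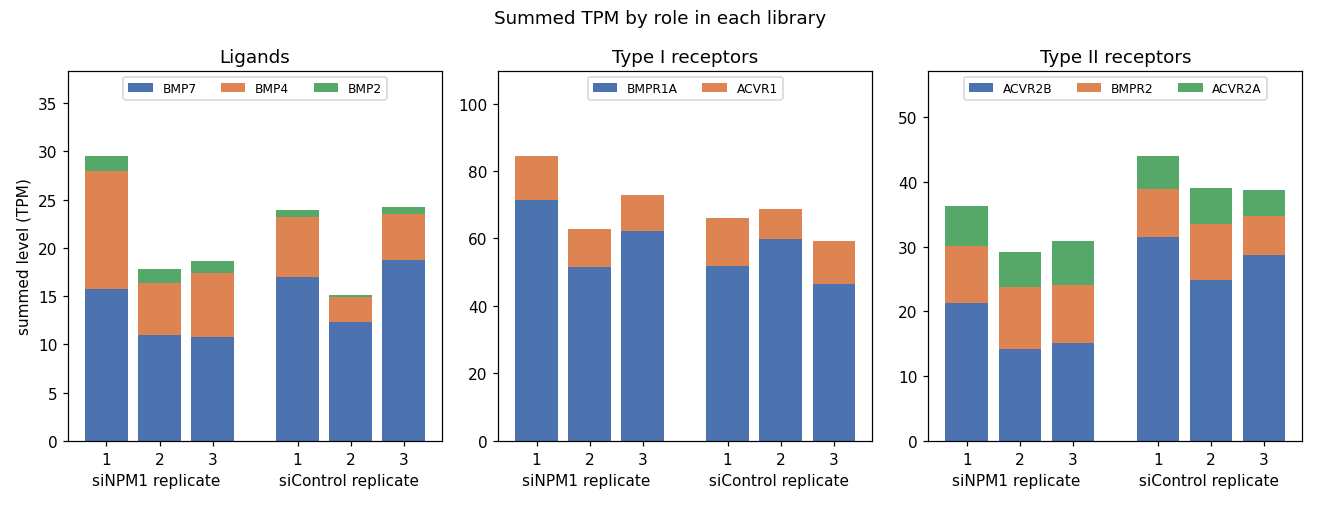
Stacked bars of TPM in each library (siNPM1 replicates 1 to 3, then siControl replicates 1 to 3) for the ligands, type I receptors and type II receptors, on linear axes from 0. BMP7 is a smaller share of the ligands, and ACVR2B of the type II receptors, in each siNPM1 library than in each siControl library.

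The type I receptors overlapped between the groups. BMPR1A (chromosome 10, 86756601 to 86932838), the main type I receptor for BMP2 and BMP4, was at 71.3, 51.6 and 62.2 TPM in siNPM1 and at 51.8, 59.9 and 46.4 TPM in siControl (log2 fold change 0.22, interval -0.16 to 0.60; limma, adjusted p = 0.444). The groups overlapped, with siNPM1 replicate 2 below siControl replicates 1 and 2. The log2 fold change of BMPR1A was 0.11 without siNPM1 replicate 1, 0.34 without siNPM1 replicate 2, 0.13 without siControl replicate 3, 0.03 against siControl replicate 2 alone and 0.09 when centred on the median. ACVR1 (chromosome 2, 157736444 to 157875862), which encodes the type I receptor ALK2, was at 13.1, 11.2 and 10.6 TPM in siNPM1 and at 14.2, 8.88 and 12.8 TPM in siControl. siControl replicate 2 was the lowest of the 6. The log2 fold change of ACVR1 was -0.02 with an interval of -0.50 to 0.47 (limma, adjusted p = 0.969), and its sign turned to 0.066 when the libraries were rescaled without mitochondrial and ribosomal protein genes. Both receptors summed to 84.4, 62.8 and 72.9 TPM in siNPM1 and 66.0, 68.8 and 59.2 TPM in siControl. BMPR1A made up 82.1% to 85.4% of the sum in siNPM1 and 78.4% to 87.1% in siControl. The ratio of BMPR1A to ACVR1 overlapped too (exact permutation p = 0.4). Every siNPM1 library lay inside the siControl range of 3.62 to 6.74 for this ratio. BMPR1B, the other classical BMP type I receptor gene, was at 0.25, 0.56 and 0.47 TPM in siNPM1 and 0.32, 1.3 and 0.14 TPM in siControl.

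Among the type II receptors, ACVR2B was lower in every siNPM1 library, while BMPR2 and ACVR2A had somewhat higher means in siNPM1. ACVR2B (chromosome 3, 38453851 to 38493142), a receptor for activins, nodal and several BMPs, was at 21.2, 14.2 and 15.1 TPM in siNPM1 and at 31.4, 24.8 and 28.7 TPM in siControl. The highest siNPM1 library, replicate 1, lay below the lowest siControl library, replicate 2. Its log2 fold change was -0.73 ± 0.186 (SE), interval -1.17 to -0.28, and it did not pass over all genes (limma, adjusted p = 0.212; exact permutation p = 0.1). Without siControl replicate 2 it passed (log2 fold change -0.82, adjusted p = 0.0237 in limma), in a fit where 12.9% of all tested genes passed as lower and 37% passed in either direction. Against siControl replicate 2 alone it did not (log2 fold change -0.55, adjusted p = 0.530).

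BMPR2 (chromosome 2, 202376936 to 202567751), the BMP-specific type II receptor, was at 8.88, 9.49 and 9.03 TPM in siNPM1 and at 7.47, 8.65 and 6.11 TPM in siControl. The groups did not overlap, by a margin of 8.88 TPM in siNPM1 replicate 1 against 8.65 TPM in siControl replicate 2. The log2 fold change was 0.28 with an interval of -0.12 to 0.68 (limma, adjusted p = 0.366; exact permutation p = 0.1). It was 0.38 without siControl replicate 2 (limma, adjusted p = 0.0645), 0.16 without siControl replicate 3, 0.07 against siControl replicate 2 alone and 0.11 under quantile normalization. ACVR2A (chromosome 2, 147844517 to 147930826), the paralog of ACVR2B, was at 6.12, 5.44 and 6.66 TPM in siNPM1 and at 5.07, 5.55 and 3.89 TPM in siControl, and its groups overlapped (log2 fold change 0.28, interval -0.16 to 0.73; limma, adjusted p = 0.400). The log2 fold change of ACVR2A was 0.37 without siControl replicate 2 (limma, adjusted p = 0.122) and 0.16 without siControl replicate 3. It was 0.11 against siControl replicate 2 alone and 0.07 under quantile normalization.

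The shares of the type II receptors did not overlap between the groups. ACVR2B made up 58.6%, 48.8% and 49.0% of the type II sum in siNPM1 and 71.5%, 63.6% and 74.2% in siControl. The ratio of ACVR2B to ACVR2A was 3.47, 2.62 and 2.27 in siNPM1 and 6.20, 4.47 and 7.38 in siControl, and that of ACVR2B to BMPR2 was 2.39, 1.502 and 1.67 in siNPM1 and 4.20, 2.87 and 4.70 in siControl (exact permutation p = 0.1 for each, the smallest possible). Neither ratio overlapped between the groups, as was so for 24.8% of all pairs of tested genes listed above 0 in all libraries. The type II sum was 36.2, 29.2 and 30.8 TPM in siNPM1 and 44.0, 39.0 and 38.7 TPM in siControl, again without overlap. Set over the type I sum it gave ratios of 0.429, 0.464 and 0.422 in siNPM1 and 0.666, 0.567 and 0.654 in siControl. siControl replicate 2 lay nearest the siNPM1 libraries in all 3 of these ratios. All 3 contain ACVR2B, which did not overlap on its own, so they are not independent of that gene or of each other.

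**Figure D3:**
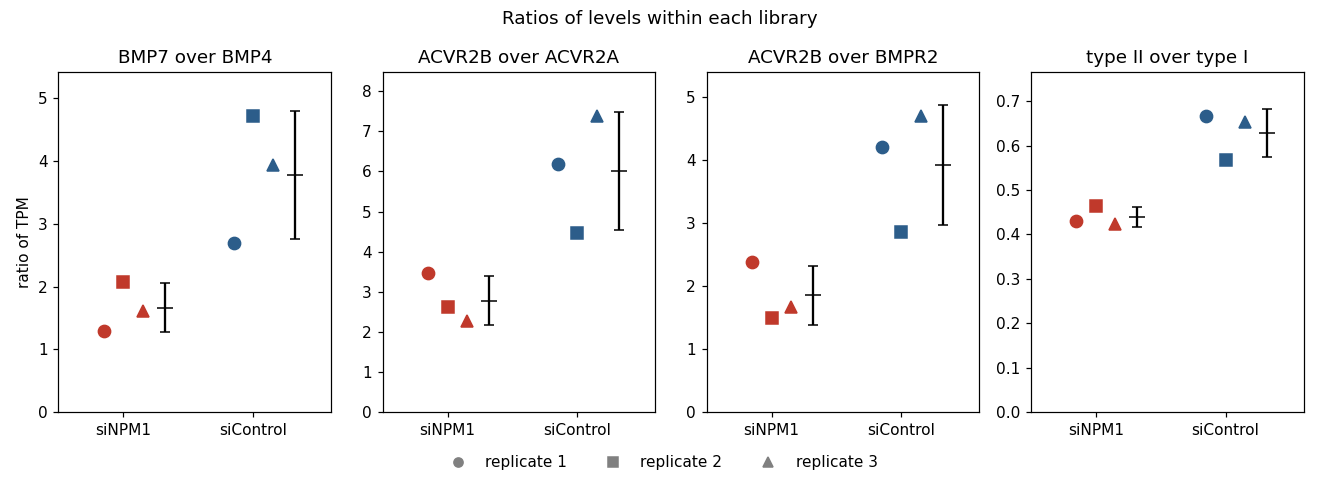
Ratios of TPM within each library (linear axes from 0) for the 3 siNPM1 (red) and 3 siControl (blue) libraries, with replicates marked by shape and the mean and SD at the right of each group. The 4 ratios shown are lower in every siNPM1 library than in every siControl library. Type II over type I is at 0.422 to 0.464 in siNPM1 and 0.567 to 0.666 in siControl. All but BMP7 over BMP4 contain ACVR2B, which did not overlap on its own. The ratio of BMPR1A to ACVR1 is not shown and overlapped between the groups.

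RGMB, a membrane-anchored co-receptor that binds BMP2 and BMP4 and the receptor neogenin, was lower in each siNPM1 library. RGMB (chromosome 5, 98768650 to 98798643) was at 6.52, 7.01 and 6.08 TPM in siNPM1 and at 11.8, 8.79 and 10.9 TPM in siControl. The groups did not overlap, and siControl replicate 2 was again the lowest control. The log2 fold change of RGMB was -0.60 ± 0.168 (SE), interval -1.002 to -0.20 (limma, adjusted p = 0.216; exact permutation p = 0.1). With siControl replicate 2 left out, RGMB passed at -0.71 on the log2 scale (limma, adjusted p = 0.00948) and did not pass against that replicate alone (log2 fold change -0.38, adjusted p = 0.508). Its paralog RGMA was at 19.1, 9.06 and 8.61 TPM in siNPM1 and at 7.42, 10.5 and 6.48 TPM in siControl (limma, adjusted p = 0.415), and NEO1, which encodes neogenin, was at 21.0 to 24.7 TPM in siNPM1 and 20.8 to 24.9 TPM in siControl (limma, adjusted p = 1.00).

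NOG (chromosome 17, 56593699 to 56595590) encodes noggin, which binds BMPs and blocks their access to receptors, and its transcript was near the bottom of the range in every library. It was at 0.21, 0.24 and 0.22 TPM in siNPM1 and at 0.09, 0.16 and 0.05 TPM in siControl. Every siNPM1 library lay above every siControl library. In the fit with no filter its log2 fold change was 0.15 with an interval of 0.0057 to 0.30 and it did not pass (limma, adjusted p = 0.385; exact permutation p = 0.1). Without siControl replicate 2 and with no filter it passed (log2 fold change 0.19, adjusted p = 0.0394 in limma), where 9.21% of all genes in that fit passed as higher. RGMB also passed there, as lower (adjusted p = 0.0213, with 5.06% of all genes lower), and ACVR2B (adjusted p = 0.0691) and BMP2 (adjusted p = 0.0767) did not. Set against the summed ligands, NOG was 0.712%, 1.35% and 1.18% in siNPM1 and 0.377%, 1.06% and 0.207% in siControl, with overlap. The depth behind values this low is unknown.

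**Figure D4:**
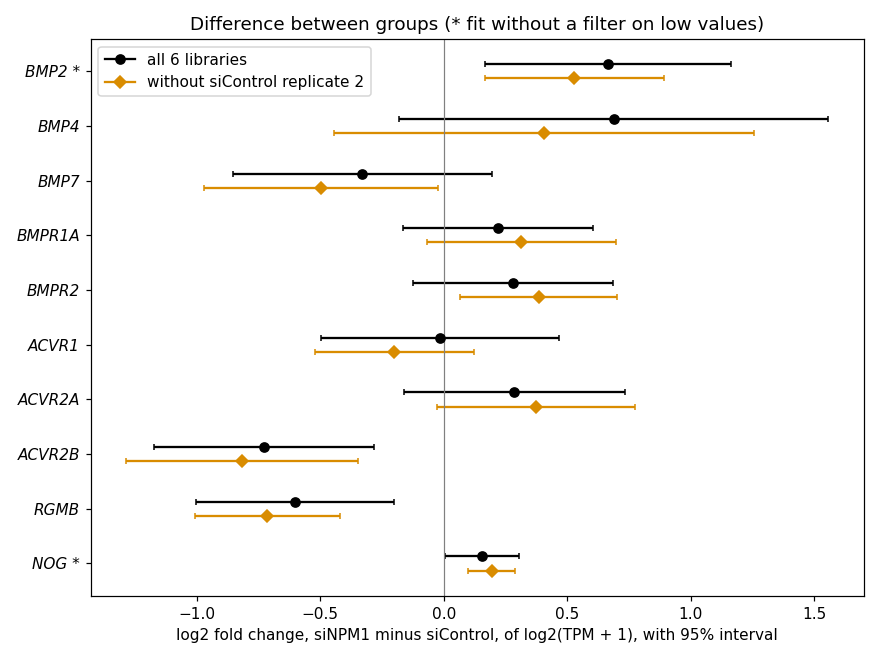
Log2 fold change (siNPM1 minus siControl, of log2(TPM + 1)) with its 95% interval for each gene, over all 6 libraries (black) and without siControl replicate 2 (orange); BMP2 and NOG come from fits with no filter on low values. With all 6 libraries the intervals of ACVR2B (-1.17 to -0.28) and RGMB (-1.002 to -0.20) lie below 0, those of BMP2 (0.17 to 1.16) and NOG (0.0057 to 0.30) above it, and the rest span it; none passed after adjustment.

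Set against the other receptors and ligands, ACVR2B and RGMB were lower in most pairings. Among the 28 pairs of the 8 tested genes, the TPM ratio did not overlap between the groups in 13, or 46.4%, beside 24.8% of all pairs of tested genes listed above 0 in all libraries. Of the 13 pairs that include ACVR2B or RGMB, 11 did not overlap. The exceptions were BMP7 with RGMB and ACVR2B with RGMB. The other 2 pairs without overlap were BMP4 with BMP7 and BMP4 with ACVR1. Pairs share genes and libraries and are not independent. ACVR2B and RGMB did not overlap between the groups on their own, so the 46.4% largely restates these 2 genes. The 24.8% was not limited to pairs that hold such a gene.

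Transcripts that overlap the 10 genes limit some values, because the strand setting of the counting is not given in the sources used here. ACVR2B-AS1, antisense to the start of ACVR2B, was at 1.86, 0.72 and 0.98 TPM in siNPM1 and 0.71, 1.38 and 0.81 TPM in siControl. RGMB-AS1, antisense to RGMB, was at 0.56, 1.66 and 0.54 TPM in siNPM1 and 5.61, 1.13 and 2.40 TPM in siControl. The 3′ end of ACVR2A overlaps that of ORC4 on the other strand, and ORC4 was at 25.6 to 33.5 TPM in siNPM1 and 26.0 to 34.6 TPM in siControl, above ACVR2A. AC073410.1, a processed pseudogene inside BMPR2 on the same strand, was at 0, 0.48 and 0.43 TPM in siNPM1 and 4.62, 0.23 and 2.93 TPM in siControl. Reads of such pairs may be split, and their part in the values was not tested.

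The rest of the BMP pathway, in lists of genes by role, gave 0 of 39 tested genes past the threshold over all genes (limma). At an unadjusted p under 0.05, 5 of the 39 (12.8%) were higher and 2 (5.13%) lower, near the 13.2% and 6.45% of all tested genes. Of these 5, 3 were among the 7 tested BMP targets (ID3, ID4 and TBX3), and the others were FSTL3 and FKBP1A. The same 3 BMP targets were higher without overlap, beside 16.2% of all tested genes. TBX3 reached the mean of 1 TPM only through siNPM1, with means of 3.05 TPM there and 0.29 TPM in siControl. Its place in these counts is thus not independent of its direction. Of 13 other BMP and GDF ligand genes only GDF7 was tested (log2 fold change -0.30; limma, adjusted p = 0.454), so BMP4 and BMP7 had the highest levels among these 13 and the 3 ligands above. GDF3, a GDF ligand placed in the activin and nodal list, was above both in mean level, at 13.3, 35.0 and 35.7 TPM in siNPM1 and 34.7, 54.8 and 32.7 TPM in siControl (limma, adjusted p = 0.398). Of 6 other receptors and co-receptors 3 were tested. All 3 had a positive fold change, beside 59.9% of all tested genes. NEO1, however, was at 0.00011, so nearly unchanged, and at -0.068 without siControl replicate 2. The median of the 3 was 0.48, the value of RGMA. That median was 0.13 without siNPM1 replicate 1, the library with the highest RGMA, 0.65 without siControl replicate 2 and 0.12 against siControl replicate 2 alone. Of these ENG, which encodes the co-receptor endoglin, and RGMA had the smallest p (log2 fold changes 0.57 and 0.48, adjusted p = 0.287 and 0.415 in limma). Of 16 other antagonists and extracellular modulators 8 were tested, 5 positive and 3 negative, with a median of 0.27 (0.03 without siNPM1 replicate 1 and 0.17 without siControl replicate 3). Among the positive ones, CER1 and KCP reached the filter only through siNPM1. Their means were 2.36 and 1.32 TPM in siNPM1 and 0.75 and 0.873 TPM in siControl. FSTL3, a follistatin-like activin antagonist, was at 7.49, 7.22 and 4.19 TPM in siNPM1 and 2.92, 3.74 and 3.04 TPM in siControl (limma, adjusted p = 0.224), and NBL1, which encodes a DAN-family BMP antagonist, at 4.67, 6.25 and 5.81 TPM in siNPM1 and 7.36, 7.35 and 9.34 TPM in siControl (limma, adjusted p = 0.247). Of 6 ligand-processing genes 5 were tested, 1 positive and 4 negative. The median of these 5 was -0.08 (0.0076 without siControl replicate 2), with FURIN, the protease that cleaves BMP precursors, at 0.27 and BMP1, a protease that cleaves the antagonist chordin, at -0.26 (adjusted p = 0.363 and 0.537 in limma).

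Of the 10 SMADs and regulators 9 were tested, 4 positive and 5 negative, with a median of -0.01, which ran from -0.06 to 0.08 with 1 library left out. FKBP1A, which encodes a protein that holds type I receptors inactive, was at 167, 195 and 207 TPM in siNPM1 and 124, 176 and 119 TPM in siControl (limma, adjusted p = 0.243), and SMAD7, an inhibitory SMAD, at 19.2, 24.3 and 21.4 TPM in siNPM1 and 11.4, 21.7 and 9.51 TPM in siControl (limma, adjusted p = 0.271). In both, siControl replicate 2 lay within the range of the siNPM1 libraries. Of 14 BMP targets 7 were tested, 6 positive with a median of 1.28, beside 59.9% positive and a median of 0.10 over all genes tested. This median is the value of ID1 and rests on siNPM1 replicate 1. Without that library the median was 0.46, again the value of ID1, with 5 of 7 positive, beside a median of 0.09 over all genes. In that fit ID4 was at 0.92 and ID2 at -0.26, against 1.69 and 0.26 with all 6 libraries, while ID3 was at 2.08 and TBX3 at 1.77. TBX3, a transcription factor, was at 2.36, 2.96 and 3.82 TPM in siNPM1 and 0.16, 0.49 and 0.22 TPM in siControl (limma, adjusted p = 0.134). It is among the 6 positive targets and reached the filter only through siNPM1 (mean of 0.29 TPM in siControl). ID3, an inhibitor of DNA binding, was at 158, 141 and 133 TPM in siNPM1 and 22.5, 70.8 and 19.9 TPM in siControl (limma, adjusted p = 0.179). siNPM1 replicate 1, the library with the highest BMP4, also had the highest ID1, at 282 TPM. In siNPM1 replicates 2 and 3 ID1 was at 52.0 and 47.8 TPM, and in siControl at 25.7, 73.5 and 24.6 TPM. siControl replicate 2, the library with the lowest BMP4, thus had the next highest ID1.

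Of 12 genes in the activin and nodal list, 6 were tested, 1 positive and 5 negative, with a median of -0.50. Of all tested genes 59.9% were positive. The list mixes roles, since LEFTY1 and LEFTY2 encode nodal antagonists. They were among the negative genes, at -0.26 and -0.39. TDGF1, the nodal co-receptor, was at 450, 476 and 454 TPM in siNPM1 and 859, 765 and 809 TPM in siControl (limma, adjusted p = 0.1002). NODAL was at 1.38, 9.52 and 7.56 TPM in siNPM1 and 9.59, 30.6 and 6.95 TPM in siControl (limma, adjusted p = 0.353), with siControl replicate 2 the highest and siNPM1 replicate 1 the lowest of the 6. The median of this list was -0.12 without siNPM1 replicate 1, -0.83 without siNPM1 replicate 2 and -0.80 without siControl replicate 3. Without siControl replicate 2 it was -0.11, with 3 positive and 3 negative. Against siControl replicate 2 alone it was -1.39, while the BMP target median was 1.74 and 0.72 in the same fits. Without that replicate 10 genes of all these lists passed, 7 higher and 3 lower, in a fit where 24.1% of all tested genes passed as higher and 12.9% as lower. They were ENG, FSTL3, SMAD1, SMAD7, FKBP1A, ID3 and TBX3 as higher and FSTL1, BAMBI and TDGF1 as lower.

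**Figure D5:**
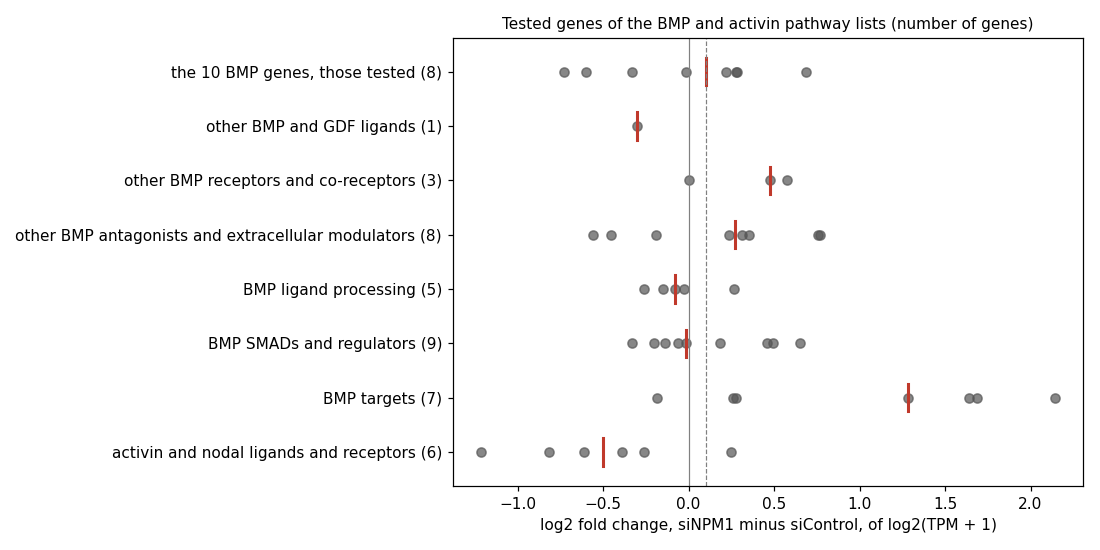
Log2 fold change (siNPM1 minus siControl, of log2(TPM + 1)) of each tested gene in the lists of the BMP and activin pathway, 1 point a gene, with list medians in red, 0 as a solid line and the median of all tested genes (0.10) as a dashed line. BMP targets have a median of 1.28 (0.46 without siNPM1 replicate 1) and activin and nodal ligands and receptors of -0.50 (-0.12 without it). The latter list also holds the nodal antagonists LEFTY1 and LEFTY2. No gene shown passed the threshold.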

How the data were processed

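The authors deposited a table of TPM values per gene and library, with the mean TPM of each group, which was not used in any test. Per the submitters' processing notes the build is GRCh38; aligner, counter, annotation and strand setting are not given in the sources used here. Totals were 999999 to 1000001 TPM in every library, so depth is unknown and no counting interval is given; the number of libraries limits the precision. Columns were matched to samples by name (treatment B23 and title siNPM1). The 15768 genes whose mean reached 1 TPM were put on the log2 scale after adding a pseudocount of 1 to each deposited value, and tested with limma 3.58.1 in R 4.3.3: variance trend, two-sided moderated test, Benjamini-Hochberg adjustment over all genes tested, threshold 0.05. The code was tested on simulated data. Named genes were NPM1, the 10 genes, those of each list past the threshold or else the 2 with the smallest p, and the 3 profiles nearest to BMP4; others were named after their values were seen. The genes and lists were chosen with earlier results of these data known. Positions are from GENCODE release 29 (92.9% of identifiers found); promoter sequences are from RefSeq. No label says whether the replicates were separate cultures, though the series design calls them biological; p-values measure the spread between these libraries. Alternatives changed the pseudocount, the filter, the scaling, the variance prior and the block, or left out libraries; list values and unfiltered fits with a library left out were chosen after seeing the data.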

Additional observations from a re-analysis of the deposited data

How the results depend on the processing

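With other pseudocounts, filters, scalings, variance priors or the replicate block, 0 of the 10 genes and 0 other listed pathway genes that were tested passed; BMP2 and NOG were both tested only with no filter, where 10 of the genes were, against 9 when rescaled and 8 otherwise. Leaving out 1 library gave 0 to 2 of the 8 tested genes and 0 to 10 other pathway genes, and all of these calls came without siControl replicate 2. Over all genes the count was 4, and it was 1 with no filter, 2 with a mean of at least 5 TPM, 1 with the replicate block, 7 with no variance trend, 1 to 5833 with 1 library left out and 27 against siControl replicate 2 alone, where the spread comes from the siNPM1 libraries only. Deviations from the group means of libraries with the same number had correlations over genes of 0.0652, 0.0814 and -0.0383 for replicates 1, 2 and 3, so the numbers were not read as pairs; replicates 1 and 2 of each group correlated best with their own number, and replicate 3 of each group with another. Of 128 fold changes of the 8 tested genes under alternatives, 119 kept direction and side of the threshold, 2 passed (ACVR2B and RGMB without siControl replicate 2) and 7 changed sign. Centring on the median put the median of all genes at -0.02, against 0.10. BMP7 was at 0.0049 against siControl replicate 2 alone. ACVR1 was at 0.066 when rescaled, at 0.35 against siControl replicate 2 alone and at -0.20 to 0.11 with 1 library left out, with sign changes at 0.0064 without siNPM1 replicate 2, 0.042 without siNPM1 replicate 3, 0.11 without siControl replicate 1 and 0.041 without siControl replicate 3. BMP4 ranged from 0.38 without siNPM1 replicate 1 to 1.25 against siControl replicate 2 alone. ACVR2B ranged from -0.90 to -0.55 and RGMB from -0.77 to -0.38 over all alternatives. The log2 difference of the summed ligands was 0.05, and its sign turned to -0.18 without siNPM1 replicate 1 and -0.17 without siControl replicate 2. The cause was not tested.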

Other observations

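The 3 genes whose profile over the 6 libraries lay nearest to that of BMP4, among 13522 tested genes with a symbol and no pseudogene or clone name, were BCORL1, KLK10 and ABCA1, with root mean square distances of 0.155, 0.170 and 0.180 between log2(TPM + 1) values centred on each gene's mean. BCORL1 was at 5.85, 2.71 and 3.41 TPM in siNPM1 and 2.36, 1.35 and 2.12 TPM in siControl, with its highest value in siNPM1 replicate 1 and its lowest in siControl replicate 2, as for BMP4.

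GREM1, which encodes the BMP antagonist gremlin, was under the filter and was named after its values were seen. It was at 0.35, 2.29 and 2.12 TPM in siNPM1 and at 0.14, 0.24 and 0.15 TPM in siControl, without overlap, and siNPM1 replicate 1 was the lowest of its group.

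LEFTY1, a secreted nodal antagonist also named after its values were seen, was at 0.47, 12.5 and 8.52 TPM in siNPM1 and at 1.35, 59.5 and 1.27 TPM in siControl, so siControl replicate 2 was the highest of the 6 libraries.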
